A study of Mus musculus with 6 samples.

Results

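The Notch pathway was described through 10 of its genes in oesophageal squamous cell carcinomas of mice. They are the receptors Notch1, Notch2, Notch3 and Notch4, the ligands Jag1, Jag2 and Dll1, and the targets Hes1, Hey1 and Nrarp. These 10 were fixed by name, found by gene symbol among 41253 symbols, and all 10 passed the filter on low counts that left 17663 genes. RNA sequencing had been run on tumours of 6 C57BL/6 mice, with 3 wild type libraries labelled WT and 3 Ptpro-/- libraries labelled Ptpro-KO. Ptpro encodes a receptor-type tyrosine phosphatase, and its loss in these tumours was the contrast of the study. All 6 mice, controls included, had drunk water with 4NQO, a DNA-damaging carcinogen (100 mg/mL as labelled), for 16 weeks starting at 6 weeks old. They were killed 12 weeks afterwards, or sooner on marked weight loss. The age at sampling was 34 weeks per the design text, while an age tag of the samples gives week 6. The sources used here do not give the design of the Ptpro allele, nor the part of the gene it removes.

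Notch signalling works between touching cells. A Jagged or Delta ligand on one cell pulls on a Notch receptor of its neighbour, the receptor is cut by ADAM proteases and by gamma-secretase, and the freed intracellular domain enters the nucleus. There it joins the DNA-binding protein RBPJ and Mastermind coactivators and switches on targets such as the Hes and Hey repressors. In squamous epithelium the pathway is known for driving cells out of the basal layer into differentiation, and NOTCH1 is often mutated in squamous carcinoma and in ageing oesophagus. Notch3 is also known from mural cells of vessels, and Notch4 and Dll4 from endothelium.

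The libraries held 25745240 to 39827467 reads. Ptpro itself did not follow the genotype labels. In CPM (read counts scaled to a common library size) it measured 5.05, 0.359 and 2.38 in WT replicates 1, 2 and 3 and 30.3, 42.8 and 50.6 in Ptpro-KO replicates 1, 2 and 3, the order used for every gene below. Its log2 fold change was 3.97 (SE 0.85, edgeR adjusted p = 0.0617), and all 3 libraries labelled Ptpro-KO were above all 3 labelled WT. Every direction below is between libraries as labelled, and a replicate named WT or Ptpro-KO is the library with that label. Markers of the squamous epithelium were abundant in all 6 libraries, with summed basal markers of 9820.3 CPM or more in each. Transcripts of other tissues varied between libraries. Ptpro-KO replicate 3 held stomach markers (17320.4 CPM in sum, at most 29.9 elsewhere), and Ptpro-KO replicate 2 thyroid markers (781 CPM, at most 26.5 elsewhere). Skeletal muscle markers summed to 58.5 CPM in WT replicate 2 and 81.2 CPM in Ptpro-KO replicate 3, against 3715 to 8914 CPM in the other 4 libraries. By Xist and Y-linked reads the libraries labelled WT came from 1 female and 2 males, and those labelled Ptpro-KO from 2 females and 1 male.

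The stretches of 250 bases before the annotated start of transcription are shown for Nrarp, Notch3 and Dll1, the 3 members whose libraries separated completely by label. They come from RefSeq on GRCm38.p6, 5′ to 3′ on the strand of the gene. The table matched 8 of the 10 members, without Hes1 and Hey1, in 9 such windows. Nrarp lies at chr2:25180508-25180757 on the plus strand, Notch3 at chr17:32166891-32167140 and Dll1 at chr17:15376933-15377182, both on the minus strand. The Dll1 window belongs to the more upstream of 2 starts, 956 bases from the start of the transcript that took most Dll1 reads. The other start is nearer to that transcript's own, at 153 bases, and its window (chr17:15375824-15376073) is not shown. Capitals mark the letters CACGTG, an E-box of the kind that basic helix-loop-helix factors bind.
Nrarp: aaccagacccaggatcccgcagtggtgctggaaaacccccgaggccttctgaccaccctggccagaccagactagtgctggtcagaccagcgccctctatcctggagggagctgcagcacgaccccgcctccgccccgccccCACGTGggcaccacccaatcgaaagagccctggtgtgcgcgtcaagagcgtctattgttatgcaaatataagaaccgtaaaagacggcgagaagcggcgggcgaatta
Notch3: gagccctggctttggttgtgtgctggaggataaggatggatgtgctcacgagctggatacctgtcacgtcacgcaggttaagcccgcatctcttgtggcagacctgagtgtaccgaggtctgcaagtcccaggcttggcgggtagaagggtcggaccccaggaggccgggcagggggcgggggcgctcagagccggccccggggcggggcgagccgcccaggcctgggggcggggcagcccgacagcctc
Dll1: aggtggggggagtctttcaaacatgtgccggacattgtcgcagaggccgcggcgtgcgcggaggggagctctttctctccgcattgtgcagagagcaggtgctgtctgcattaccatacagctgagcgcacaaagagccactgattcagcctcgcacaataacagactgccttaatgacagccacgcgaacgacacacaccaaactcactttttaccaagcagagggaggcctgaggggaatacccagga

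A pair of motifs was searched on both strands of these windows. The core of the RBPJ site, TGGGAA, was in 0 of the 9 member windows and in 21.6% of the 32851 windows of the table. The E-box CACGTG was in 1 of the 9, that of Nrarp, 108 bases before the start, and in 6.02% of all windows. The match is a description of letters only.

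The member that differed most was Nrarp, an ankyrin repeat protein that Notch induces and that binds and restrains the Notch transcription complex. Nrarp measured 43.0, 49.1 and 52.2 CPM under the WT label and 27.8, 20.8 and 17.1 CPM under the Ptpro-KO label. All 3 libraries labelled Ptpro-KO lay below all 3 labelled WT, with a gap between 27.8 and 43.0. The means were 48.1 ± 4.67 and 21.9 ± 5.46 CPM (SD, n = 3 each), and Nrarp fell by 1.13 on the log2 scale (SE 0.20, 95% interval -1.63 to -0.64, edgeR adjusted p = 0.0432). It was the only one of the 10 members called at an adjusted p under 0.05, where 4.10% of all 17663 genes were called (2.29% lower and 1.81% higher). The call is near the threshold: leaving out WT replicate 1, 2 or 3 gave adjusted p = 0.0789, 0.130 and 0.173, and leaving out Ptpro-KO replicate 1, 2 or 3 gave 0.0552, 0.103 and 0.0597, all by edgeR. The direction held in all 16 alternatives, with log2 fold changes from -1.38 to -0.99. Of those, DESeq2 (17.8% of all genes called), limma-voom (3.79%), RLE factors (4.08%), upper-quartile factors (4.12%), library totals only (5.23%) and no filter on low counts (1.82%) also called Nrarp. The call was not made by limma on log2(FPKM + 1) (2.70% of all genes called) or log2(FPKM + 0.1) (1.85%), with the replicate number as a block (1.34%) or with a term for sex (1.05%). Nor was it made by the fits without 1 library, which called these shares of all genes: 0.722%, 0.00% and 0.00% without WT replicate 1, 2 or 3, and 0.517%, 0.00% and 2.75% without Ptpro-KO replicate 1, 2 or 3.

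**Figure D1:**
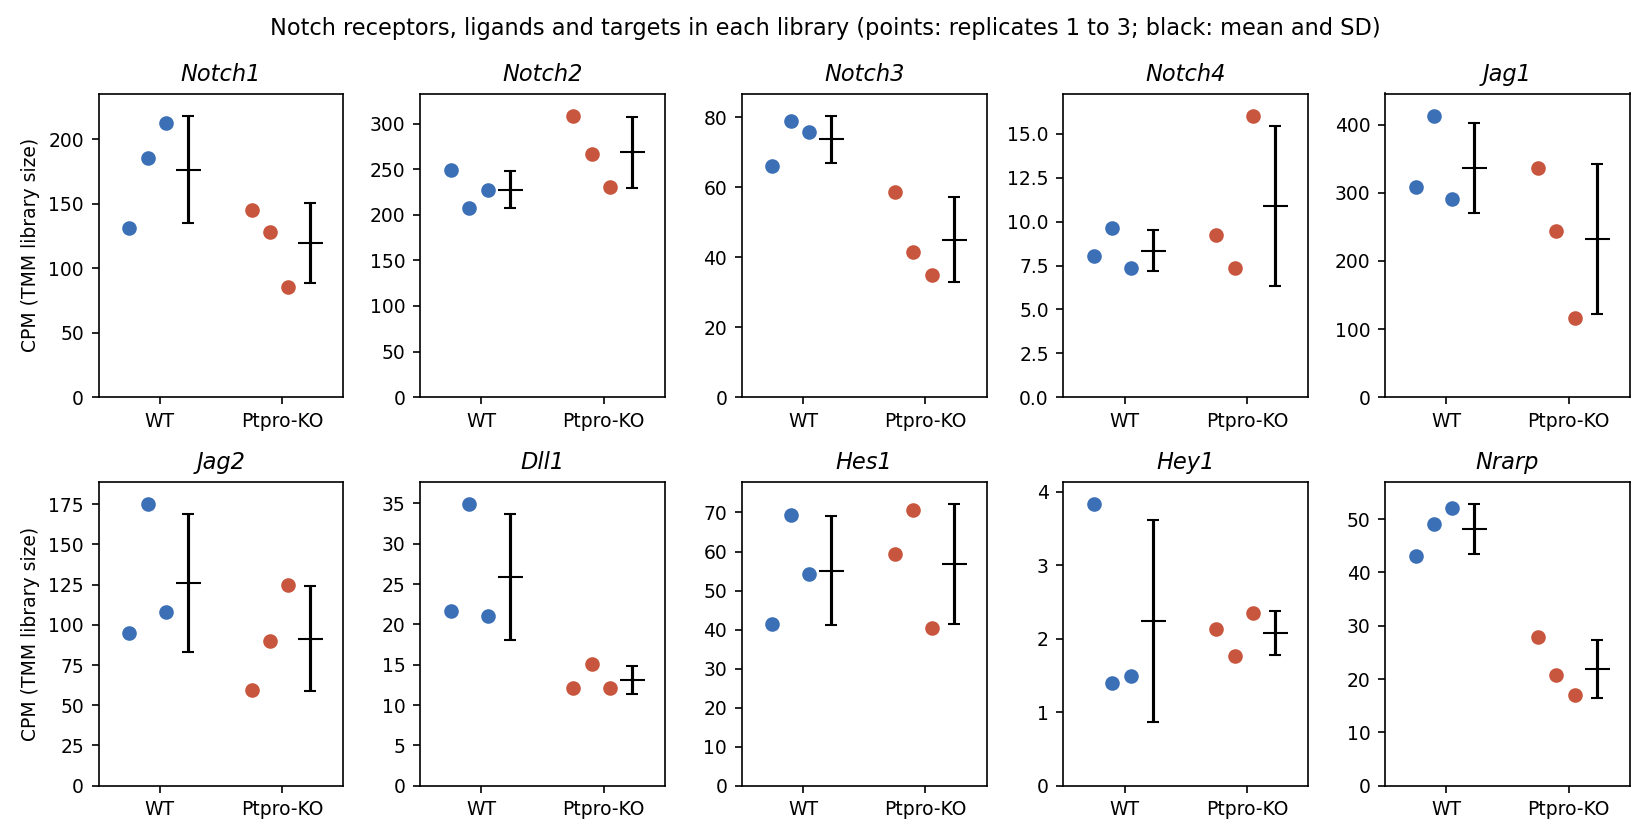
CPM on TMM-scaled library sizes (vertical axes, each from 0) of the 10 Notch genes in the libraries labelled WT (blue) and Ptpro-KO (red), 1 point per library in the order of replicates 1 to 3, with the mean and SD in black. Nrarp, Notch3 and Dll1 separate by label, while the groups of the other 7 genes overlap, with means of 55.1 and 56.8 CPM for Hes1.

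Hes1 and Hey1, the other targets, did not pass the test. Hes1, a helix-loop-helix repressor that keeps progenitors undifferentiated, measured 41.5, 69.4 and 54.4 CPM against 59.4, 70.6 and 40.4. The lowest and the highest Hes1 value both came from libraries labelled Ptpro-KO, so the range of one label enclosed that of the other. The log2 fold change was 0.04 with a 95% interval of -0.62 to 0.70 (edgeR adjusted p = 0.941). That interval and the interval of Nrarp do not overlap, but the difference between the 2 genes was not tested. Hey1, a related repressor prominent in vessels, was scarce, at 3.83, 1.39 and 1.50 CPM against 2.13, 1.76 and 2.35. Its reads numbered 35 to 132 per library, and WT replicate 1 alone was high. The Hey1 log2 fold change of -0.11 (95% interval -1.22 to 0.99) became 0.52 without WT replicate 1 (edgeR adjusted p = 0.366), so no direction can be read.

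Among the receptors, Notch3 alone had groups that did not overlap. Notch3 measured 66.2, 78.9 and 75.9 CPM under the WT label and 58.5, 41.5 and 34.9 CPM under the other. The gap was narrow, between Ptpro-KO replicate 1 and WT replicate 1. The means were 73.7 ± 6.67 and 45.0 ± 12.2 CPM (SD, n = 3 each). The log2 fold change of -0.71 (SE 0.21, 95% interval -1.22 to -0.21) did not pass by edgeR (adjusted p = 0.108) and passed by DESeq2 (adjusted p = 0.0272). Over all 17 fits it ran from -0.98 to -0.56, always negative.

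Notch1, the main receptor of squamous differentiation, stood at 131, 186 and 213 CPM against 145, 128 and 85.2. WT replicate 1 lay among the libraries labelled Ptpro-KO, so the groups overlapped. The log2 fold change was -0.56 with a 95% interval of -1.21 to 0.08 (edgeR adjusted p = 0.253). Notch2 stood at 249, 207 and 227 CPM against 308, 266 and 231, with overlapping groups. Its log2 fold change was 0.24 with a 95% interval of -0.12 to 0.60 (edgeR adjusted p = 0.375), so a doubling or a halving of Notch2 lies outside the interval. Notch4 was the scarcest receptor, at 8.06, 9.64 and 7.37 CPM against 9.22, 7.37 and 16.0. Ptpro-KO replicate 3, the library with stomach transcripts, alone was high, and without it the Notch4 log2 fold change went from 0.38 to -0.01.

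Dll1, the Delta ligand of the 10, was low in each library labelled Ptpro-KO. Dll1 measured 21.7, 34.9 and 21.0 CPM against 12.1, 15.1 and 12.1 CPM. The groups did not overlap, and the 3 values of the Ptpro-KO label lay close together. The means were 25.9 ± 7.81 and 13.1 ± 1.72 CPM (SD, n = 3 each). The log2 fold change of -0.98 (SE 0.24, 95% interval -1.57 to -0.39) did not pass by edgeR (adjusted p = 0.0797) and passed by DESeq2 (adjusted p = 0.00457). Nrarp, Notch3 and Dll1 were 3 of 10 members with separated groups, all lower, where 32.5% of all genes were separated (15.7% lower, 16.8% higher), so the share separated in either direction is near the background. The same 3 were the members at an unadjusted p under 0.05, where 25.0% of all genes were (11.3% lower, 13.7% higher).

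Jag1, the most abundant ligand, stood at 308, 413 and 290.4 CPM against 336, 244 and 117. The low value came from Ptpro-KO replicate 3, and the other libraries of that label lay near or within the WT range. The log2 fold change was -0.54 (95% interval -1.48 to 0.41, edgeR adjusted p = 0.442), and -0.22 without Ptpro-KO replicate 3. Jag2, another Jagged ligand, stood at 94.7, 175 and 108 CPM against 59.3, 90.1 and 125. Its highest value was in WT replicate 2 and its groups overlapped. The Jag2 log2 fold change was -0.46 (95% interval -1.31 to 0.38, edgeR adjusted p = 0.456), and -0.16 without WT replicate 2. In Ptpro-KO replicate 3 the Jagged genes diverged, with the lowest Jag1 and the highest Jag2 of that label. Of the 10 members 7 log2 fold changes were negative, with a median of -0.50, against a median of 0.03 over all genes tested.

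Levels were compared between genes on the FPKM scale of the deposited gene table, which divides by gene length. In the libraries labelled WT the order of mean FPKM was Jag1 (76.5 ± 16.8, SD, n = 3 throughout), Hes1 (54.0 ± 15.4), Jag2 (41.3 ± 15.1), Nrarp (25.6 ± 3.18), Notch2 (25.6 ± 1.62), Notch1 (21.1 ± 4.77), Notch3 (11.2 ± 1.36), Dll1 (8.84 ± 2.78), Notch4 (1.46 ± 0.24) and Hey1 (1.24 ± 0.72). The ranges of neighbours overlapped except between Jag2 and Nrarp, Notch1 and Notch3, and Dll1 and Notch4. In the libraries labelled Ptpro-KO it was Hes1 (55.3 ± 15.8), Jag1 (52.9 ± 25.3), Notch2 (30.0 ± 4.25), Jag2 (28.6 ± 10.4), Notch1 (13.7 ± 3.26), Nrarp (11.6 ± 2.77), Notch3 (6.66 ± 1.60), Dll1 (4.33 ± 0.62), Notch4 (1.87 ± 0.76) and Hey1 (1.17 ± 0.16). There the ranges of neighbours were apart between Jag2 and Notch1, Nrarp and Notch3, Notch3 and Dll1, and Dll1 and Notch4. Jag1 and Hes1 held the first places under either label, Notch2 ranked above Jag2 under the Ptpro-KO label only, with overlapping ranges, and Notch4 and Hey1 were last.

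Sums and shares were taken within each family on the FPKM scale. The 4 receptors summed to 54.0, 61.1 and 63.2 FPKM in the libraries labelled WT and to 60.7, 52.0 and 43.9 FPKM in those labelled Ptpro-KO, so the sums overlapped. Notch2 made up 50.5%, 39.3% and 40.5% of the summed receptor FPKM under the WT label and 56.4%, 57.7% and 58.7% under the Ptpro-KO label. Those groups did not overlap, and neither did the groups of Notch3, at 18.0%, 20.2% and 18.4% against 13.9%, 11.9% and 12.2%. Nrarp made up 34.4%, 27.7% and 34.5% of the 3 summed targets against 19.9%, 13.6% and 18.3%. Among the 3 ligands Jag1 held 64.8%, 57.6% and 60.5% of the summed FPKM against 77.5%, 62.6% and 37.8%, and Jag2 28.4%, 35.1% and 32.9% against 18.4%, 31.8% and 56.4%. The order of Jag1 and Jag2 was thus turned around in Ptpro-KO replicate 3 alone. A share is tied to the other members of its family, so these are not separate results from the values per gene.

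**Figure D2:**
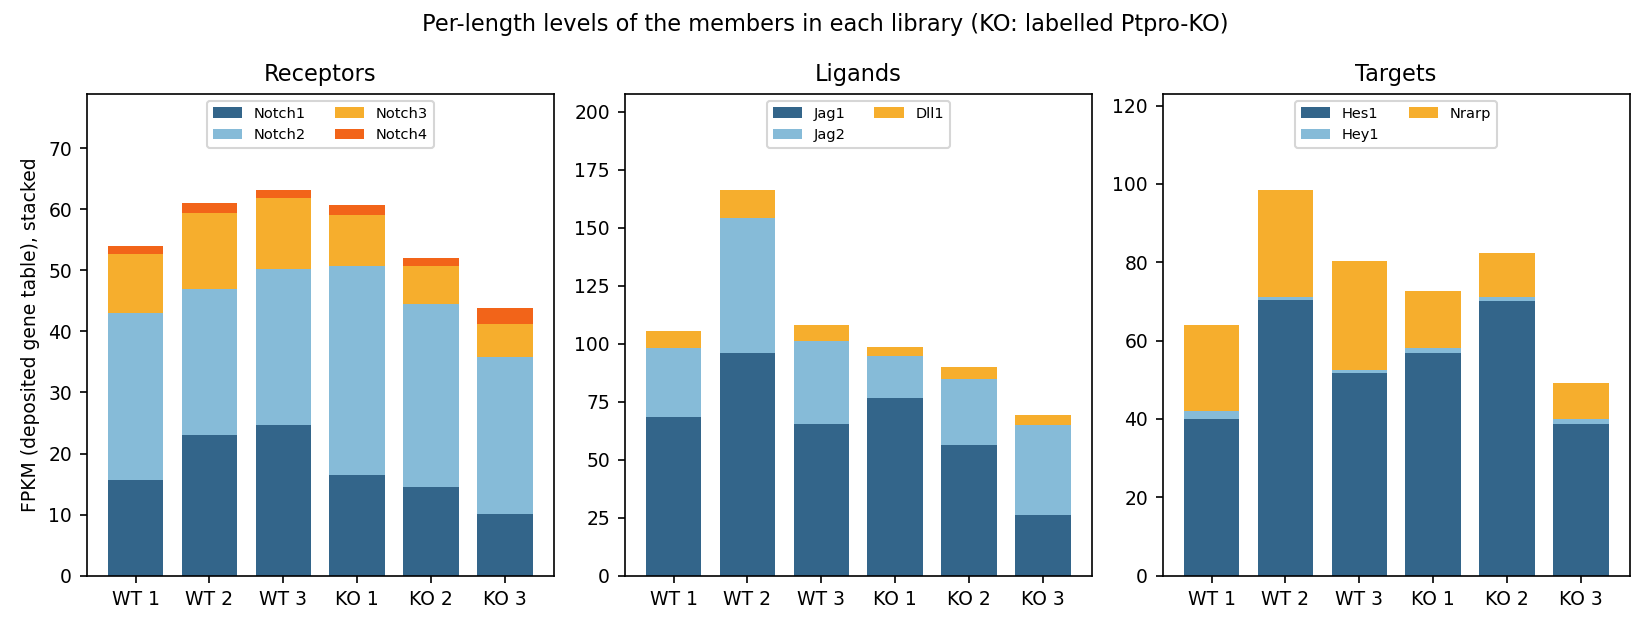
Deposited FPKM of the members in each library, stacked by family, with receptors, ligands and targets in separate panels and KO standing for libraries labelled Ptpro-KO. The Notch2 band is 24.0 to 27.3 FPKM under the WT label and 25.7 to 34.2 FPKM under the other, while the Notch3 and Nrarp bands are thinner in each KO bar than in any WT bar.

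The order of Notch1 and Notch2 depended on how transcripts were counted under the WT label only. Under the Ptpro-KO label Notch2 stayed above Notch1. The mean per-library ratio of Notch2 to Notch1 was 1.27 under the WT label and 2.24 under the Ptpro-KO label in FPKM. With RPKM summed over all listed transcripts it was 0.927 and 1.55, and with the RPKM of the transcript holding most reads alone 1.35 and 2.34. Notch1 has 11 listed transcripts, and the longest, of 9488 bases, took 86.8% to 92.9% of its reads. Most of its other reads fell on a transcript of 4132 bases (265 to 734 reads per library). Per length a read counts for more on a shorter transcript, but the part of this in the ratios was not tested. Notch2, Notch3, Jag2, Hey1 and Nrarp have 1 listed transcript each, and the main transcript took at least 94.4% of the reads of Notch4, Jag1, Dll1 and Hes1.

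The members lie on 5 chromosomes of GRCm38 (GENCODE M21). Chromosome 2 holds Notch1 (26457903 to 26516663, minus strand), Jag1 (137081456 to 137116644, minus) and Nrarp (25180758 to 25183339, plus). Chromosome 17 holds Notch3 (32120820 to 32166852, minus), Notch4 (34564268 to 34588503, plus) and Dll1 (15367354 to 15376872, minus). Notch2 (98013527 to 98150361, plus) and Hey1 (8663359 to 8667256, minus) are on chromosome 3, Jag2 (112907819 to 112929776, minus) on chromosome 12 and Hes1 (30064384 to 30067796, plus) on chromosome 16. Exons of Notch1, Notch3, Dll1 and Nrarp overlap an annotated gene on the other strand. Notch2 overlaps an annotated gene on its own strand (Gm42820). The overlapping genes that were counted had few reads, at most 149 over all libraries (0610009E02Rik) against 29096 for Notch1. Gm42820 and Gm38287, which overlaps Nrarp, were not among the counted symbols, so their reads are not known. The sources used here do not say whether the counting used strand.

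Of the 47 other pathway genes listed, 44 passed the filter, 2 rose and 2 fell by edgeR (4.10% of all genes were called), and 40 did not pass. Their median log2 fold change was 0.04, against 0.03 over all genes tested. Of the 44, 19 had an unadjusted p under 0.05 by edgeR, as did 25.0% of all genes. The groups of 24 of the 44 overlapped, as did those of 11921 of all 17663 genes. The 4 called genes were Dtx4, Rfng, Dtx2 and Aph1c, which passed in 11, 9, 5 and 4 of the 16 alternatives. Dtx2 and Aph1c passed in 0 of the 6 fits without 1 library (adjusted p 0.065 to 0.165 and 0.0774 to 0.187 by edgeR). Dtx4, one of the Deltex ubiquitin ligases that act on Notch, rose from 8.47, 4.54 and 6.02 CPM to 28.1, 33.7 and 30.6 CPM. Its log2 fold change was 2.28 (SE 0.25, edgeR adjusted p = 0.0182), and the groups were far apart. Another Deltex gene, Dtx2, fell from 28.6, 33.6 and 34.7 CPM to 16.8, 19.8 and 19.6 CPM, by 0.78 on the log2 scale (SE 0.13, edgeR adjusted p = 0.0384). Dtx1, a Deltex gene that is itself a Notch target, measured 0.159 to 2.35 CPM with overlapping groups, and Dtx3 did not pass either (log2 fold change 0.13).

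Enzymes that add sugars to the EGF repeats of Notch, and so tune which ligand it answers, split by member. The fringe gene Rfng fell from 27.1, 31.3 and 29.8 CPM to 15.1, 15.6 and 17.4 CPM, by 0.88 on the log2 scale (SE 0.12, edgeR adjusted p = 0.0274). The other fringe genes leaned the opposite way and passed by DESeq2 (adjusted p = 0.00154 for Lfng and 0.0346 for Mfng) but not by edgeR: Lfng stood at 12.9, 18.0 and 13.9 CPM against 22.3, 32.4 and 32.5 (log2 fold change 0.96, edgeR adjusted p = 0.0654), and Mfng had a log2 fold change of 1.05 (edgeR adjusted p = 0.118). Both Lfng and Mfng had all 3 libraries labelled Ptpro-KO above the others, and Rfng had all 3 below. Over all genes tested, 16.8% were separated upward and 15.7% downward, and DESeq2 called 17.8%. Pofut1, which adds the fucose that fringes extend, had a log2 fold change of 0.30 and Poglut1, a glucosyltransferase, of -0.22, neither past the test.

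Of 10 genes for receptor cleavage, 1 rose and 0 fell by edgeR, where 4.10% of all genes were called. That was Aph1c, one form of a gamma-secretase subunit, at 1.30, 1.20 and 1.28 CPM against 2.82, 2.51 and 3.37 (log2 fold change 1.20, SE 0.23, edgeR adjusted p = 0.048). Aph1b is a close paralog of Aph1c, so reads may have been divided between them, and Aph1b had a log2 fold change of -0.13. On log2(FPKM + 1) the difference of Aph1c was 0.24. Psen2, a catalytic subunit of gamma-secretase, measured 8.41, 4.70 and 4.91 CPM against 14.0, 13.5 and 16.7. All 3 libraries labelled Ptpro-KO were above the others, with a log2 fold change of 1.29 that did not pass by edgeR (adjusted p = 0.0616) and passed by DESeq2. Of all genes tested, 16.8% were separated upward and DESeq2 called 17.8%. The proteases Adam10 and Adam17 had log2 fold changes of -0.07 and -0.09, with overlapping groups.

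Of 11 genes of the nuclear complex, 0 passed by edgeR, with 4 at an unadjusted p under 0.05 (25.0% of all genes). DESeq2, which called 17.8% of all genes, called 4 of them: Rbpj and the corepressor Tle1 higher, and the corepressors Tle3 and Tle4 lower, with DESeq2 log2 fold changes of 0.92, 0.53, -0.49 and -1.06. Rbpj, the DNA-binding partner of Notch, stood at 52.9, 42.9 and 40.3 CPM against 106, 83.7 and 68.7, a log2 fold change of 0.92 (SE 0.19, edgeR adjusted p = 0.06). Its groups were separated upward, as were 16.8% of all genes, and opposite to Nrarp. The coactivators Maml1, Maml2 and Maml3 had log2 fold changes of 0.10, 0.57 and 0.01 and none passed. Numb, an endocytic inhibitor of Notch, had a log2 fold change of -0.18 (edgeR adjusted p = 0.364).

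Of 7 other Hes and Hey genes, 4 passed the filter on low counts and 0 passed the edgeR test. At an unadjusted p under 0.05 there were 2 (25.0% of all genes). Heyl, a repressor known from mural cells, stood at 1.88, 1.00 and 2.06 CPM against 5.48, 4.27 and 2.53 (log2 fold change 1.31, edgeR adjusted p = 0.128). Hes6, known as an antagonist of Hes1, stood at 9.22, 9.88 and 12.0 CPM against 20.1, 39.9 and 23.0 (log2 fold change 1.41, edgeR adjusted p = 0.0595). DESeq2 called both. Hes5 had 0 reads in every library, and Hes2 and Hes3 were under 0.43 CPM. Dll4, the endothelial ligand, stood at 6.61, 7.25 and 5.16 CPM against 4.84, 3.64 and 6.75, with overlapping groups. DESeq2 called 15 of the 44 pathway genes, where it called 17.8% of all genes. By edgeR, leaving out WT replicate 1 left 1 (Dtx4), Ptpro-KO replicate 3 left 2 (Rfng and Dtx4) and any other library left 0, with 14 to 16 at an unadjusted p under 0.05. Those fits called 0.722% (WT replicate 1), 2.75% (Ptpro-KO replicate 3), 0.517% (Ptpro-KO replicate 1) and otherwise 0.00% of all genes, against 4.10% with all libraries. In the fits that left 0, an unadjusted p under 0.05 was reached by 3078 to 4363 genes of 18004 to 18353 tested.

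**Figure D3:**
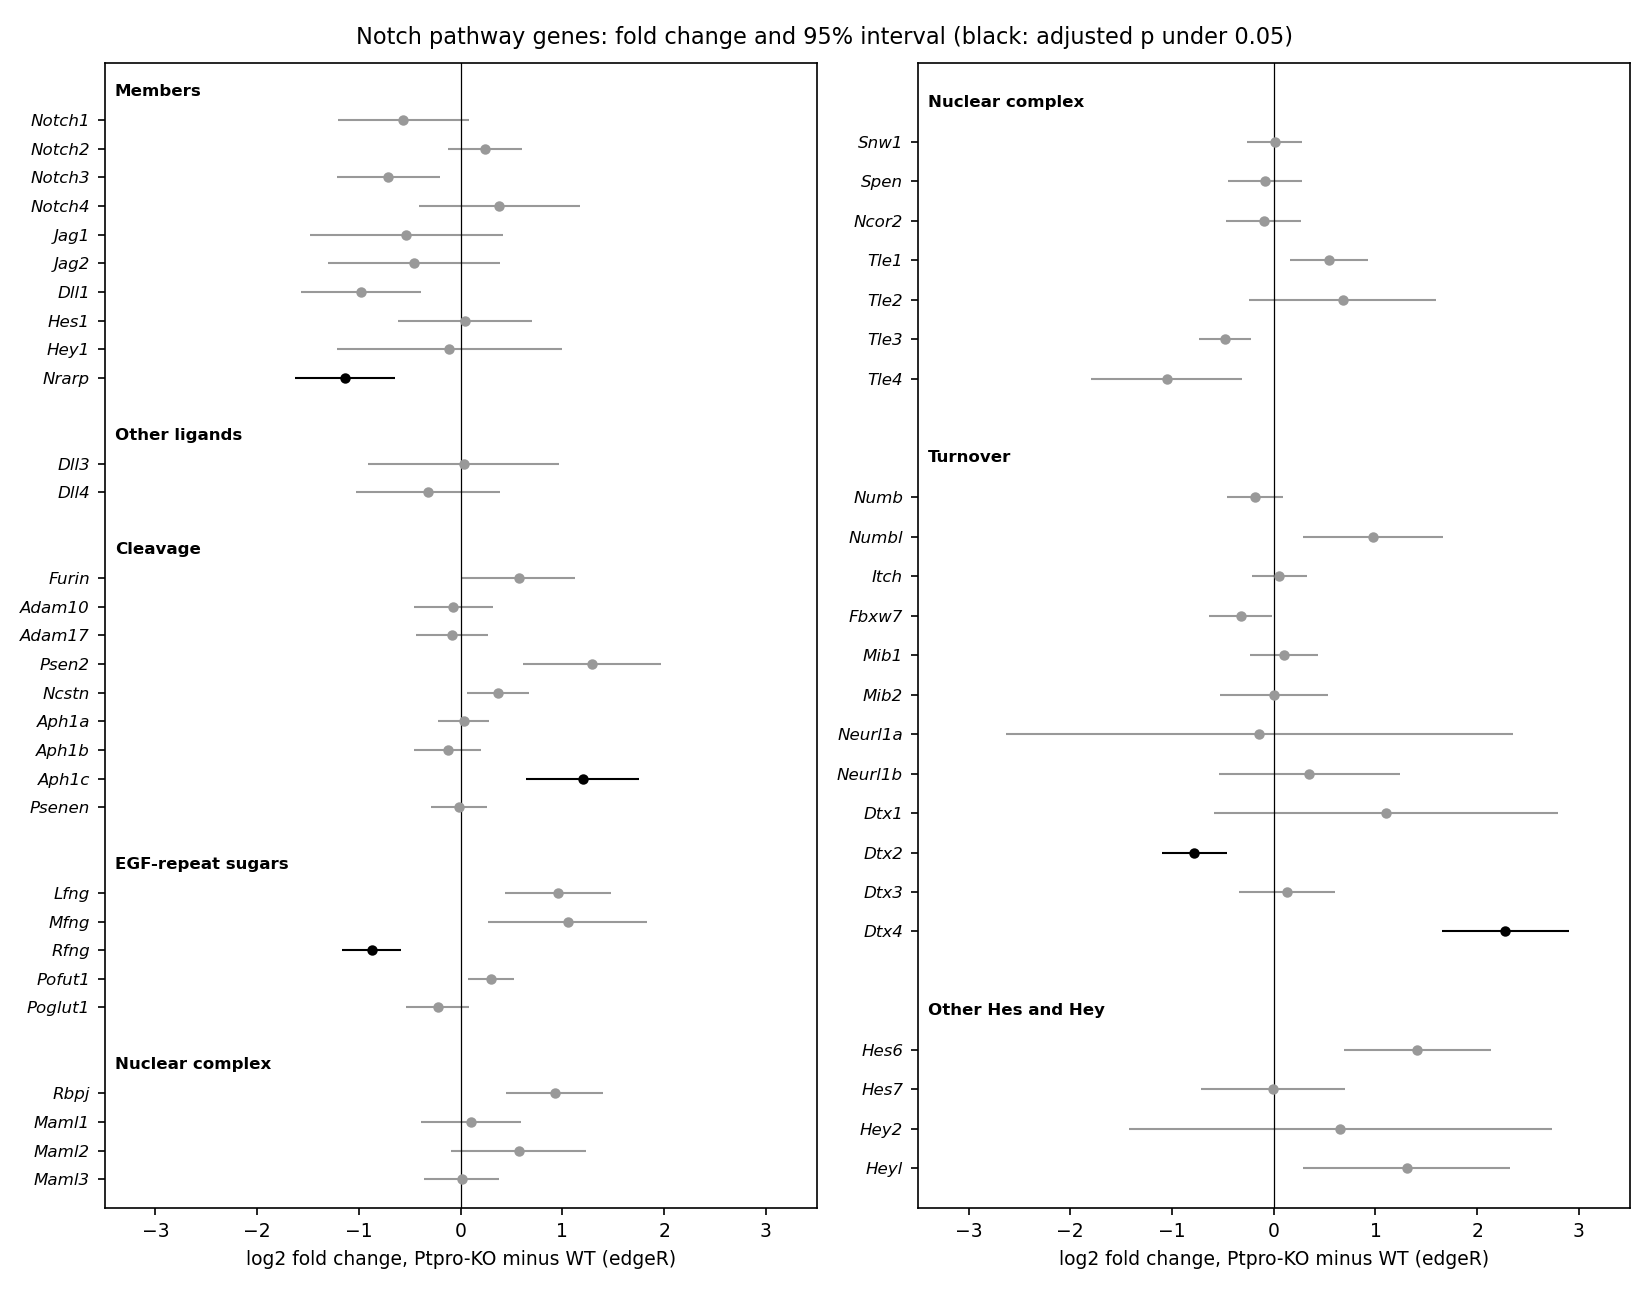
Log2 fold change of Ptpro-KO minus WT as labelled (horizontal axis) with its 95% interval from edgeR for the 10 members and other pathway genes tested, grouped by role, black where the adjusted p was under 0.05. Nrarp (-1.13), Rfng (-0.88) and Dtx2 (-0.78) lie to the left in black and Dtx4 (2.28) and Aph1c (1.20) to the right.

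Markers of squamous and simple epithelium and of fibroblasts moved with the labels as well, and their part in the results above was not tested. In bulk tumour RNA, fewer cells of a type and less RNA per cell cannot be told apart. Markers are counted as fallen or risen at an edgeR adjusted p under 0.05, where 2.29% of all genes were lower and 1.81% higher. Of 8 basal squamous markers, 2 fell and 0 rose. Their sum was 22238.5 to 30591.5 CPM under the WT label and 9820.3 to 13324 CPM under the Ptpro-KO label. Krt5 and Krt14, the basal keratin pair, were the 2 that fell, and they made up most of that sum in each library. The groups of 5 of the 8 were separated downward. Those of the other 3 (Krt15, Itgb4 and Lamb3) overlapped, with log2 fold changes of -1.11, -0.30 and -0.01. Of 8 suprabasal markers 4 fell, and their sum was 12015 to 28572 against 3723 to 11132 CPM. Nrarp, Notch3 and Dll1 were singled out above for being lower under the same label, as were 15.7% of all genes. Their coincidence with lower squamous markers follows from that choice, and a link was not tested. Of 8 markers of simple epithelium 4 rose, with sums of 94.8 to 223 against 1215 to 2409 CPM. None of these 24 markers was at 0 in any library.

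Markers of vessels, stroma and macrophages were read the same way. Over all genes tested, 4.10% passed by edgeR, 25.0% had an unadjusted p under 0.05 by edgeR and 17.8% passed by DESeq2. Of 12 endothelial markers 0 passed by edgeR, 1 had an unadjusted p under 0.05 (Egfl7), and 0 passed by DESeq2. Their sum was 222 to 329 CPM under the WT label and 234 to 359 CPM under the Ptpro-KO label, with overlapping ranges. Of 10 mural markers 0 passed by edgeR, 2 had an unadjusted p under 0.05 and passed by DESeq2 (Pdgfrb and Kcnj8), and all 10 log2 fold changes were positive, with sums of 428 to 1605 against 1334 to 3566 CPM. The groups of 8 of these 10 overlapped, among them Rgs5 and Cspg4, with log2 fold changes of 0.10 and 0.11. Over all 17663 genes tested, 9408 log2 fold changes were positive and the groups of 11921 genes overlapped. Notch3 is a gene also of mural cells, and the part of mural cells in its values was not tested. Of 8 fibroblast markers 2 rose by edgeR (Col1a1 and Col1a2), with sums of 407 to 2020.2 against 3084 to 4700.3 CPM. The groups of 4 others (Dcn, Lum, Dpt and Fbln1) overlapped. Of 7 macrophage markers found under their symbols 0 passed by edgeR, all 7 had an unadjusted p under 0.05 and passed by DESeq2, 6 with positive log2 fold changes, and the sums were 169.7 to 376 against 523 to 984 CPM.

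The genes closest to each receptor were sought by Pearson r of log2 CPM over the 6 libraries, among 10202 genes with a mean log2 CPM of at least 3. They were Cib2, Rnf145 and Parl for Notch1 (r = 0.987 to 0.968), Athl1, Tgfb3 and Sec23a for Notch2 (0.988 to 0.981), Dync1i2, Ammecr1 and Ube3c for Notch3 (0.997 to 0.996), and Dhcr7, Asap2 and Kat7 for Notch4 (0.989 to 0.984). With 6 libraries that share 2 labels, the likeness is only a description. Among the members themselves, Nrarp and Notch3 ran most alike (r = 0.977) and Notch2 and Jag2 most opposed (r = -0.967).

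**Figure D4:**
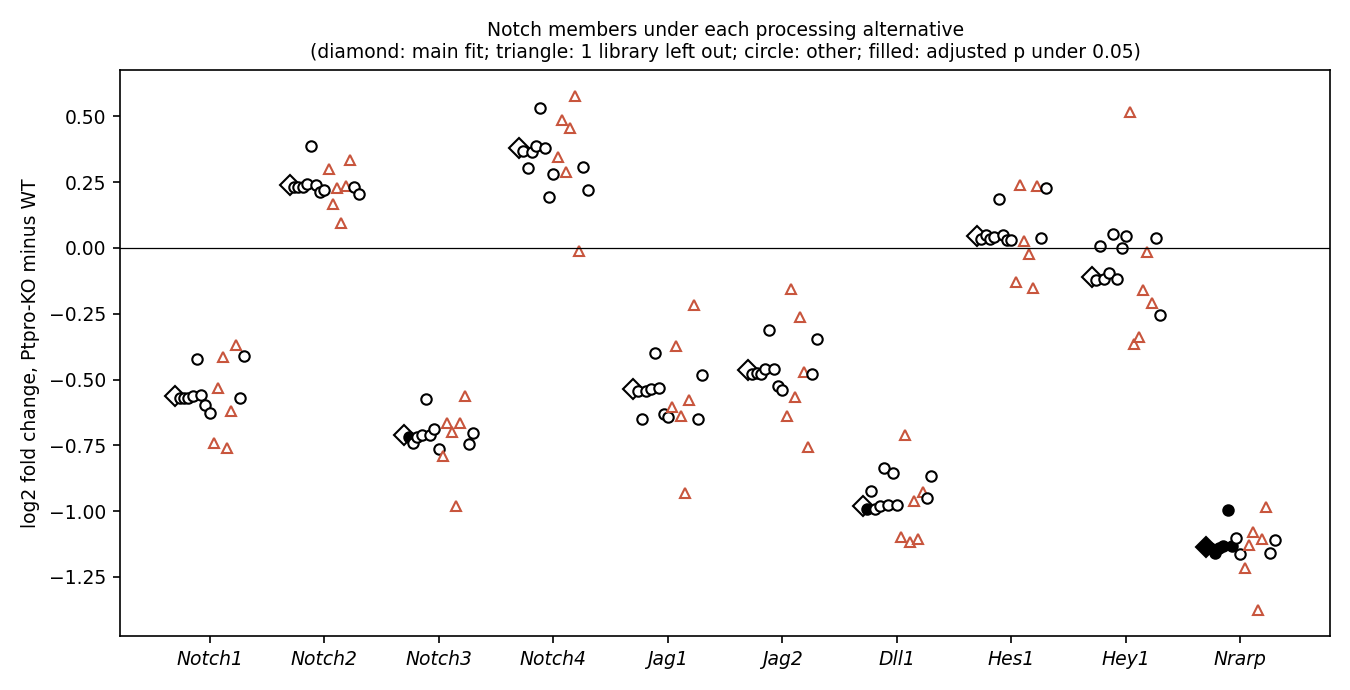
Log2 fold change of each of the 10 members (vertical axis) in the main edgeR fit (diamond), with 1 library left out (triangles) and under the other alternatives (circles), filled where the adjusted p was under 0.05. Nrarp ranges from -1.38 to -0.99 and stays below 0 throughout, as do Notch1, Notch3, Jag1, Jag2 and Dll1, while Notch4, Hes1 and Hey1 cross 0.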

How the data were processed

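Whole read counts per Ensembl transcript, transcript length in bases (a column of no further unit) and RPKM were deposited for each of the 6 libraries, and per the submitters' processing notes the tool named is Bowtie 0.12.2 and the build mm10. The deposited RPKM equals the count per length and library total (largest relative deviation 5.4e-07). For the gene-level FPKM that the authors deposited, the sources used here name no tool, and 2 further columns of that table were not used. Its columns were matched to samples by the codes shared with the per-sample tables. Libraries were taken as separate mice, 3 per label.

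Counts were summed per gene symbol, filtered with filterByExpr (at least 10 counts, and 15 in total) and TMM-normalised. The main test was edgeR's quasi-likelihood test (version 4.0.16, R 4.3.3) over 17663 genes, with Benjamini-Hochberg adjustment at 0.05. The test gives no SE, so the SE was taken as the absolute log2 fold change over the square root of the F statistic. Intervals are at 95%, from that SE and a t quantile on the total degrees of freedom. No pair of libraries within a label agreed within sampling noise (chi-square over degrees of freedom 66.9 or more). Members, lists and tests were chosen with earlier results of these data known. Named genes were the members, called list genes, 6 preset pathway genes and the 3 genes most like each receptor; others were named after their values were seen. On counts simulated for this comparison (17408 genes) the test recovered 1 of 97 genes with a 2-fold change and 53 of 99 with a 4-fold one. Alternatives were DESeq2 1.42.0, limma 3.58.1 (voom, log2(FPKM + 1), log2(FPKM + 0.1)), other scalings, no filter, leaving out each library, a replicate block and a sex term. The values of 1 list gene are not reported here, though list counts include it.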

Additional observations from a re-analysis of the deposited data

How the results depend on the processing

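The 10 members were recomputed under 16 alternatives. Of the values that resulted, 139 kept direction and side of the threshold, 10 lost a call (all Nrarp), 2 gained one (Notch3 and Dll1, by DESeq2) and 9 reversed. DESeq2 called 3 members and 15 other pathway genes, where it called 17.8% of all genes. With limma on log2(FPKM + 1) 0 members were called (2.70% of all genes), with 3 at an unadjusted p under 0.05 (4466 of 20433 genes). On log2(FPKM + 0.1) 0 members and 2 other genes were called (1.85% of all genes), with 3 members unadjusted (4258 of 20433 genes). Without the filter on low counts 2 other genes were called (1.82% of all genes). By edgeR, the sex term left 0 members (3 unadjusted) and 1 other gene, with 1.05% of all genes called and 4036 of 17663 unadjusted. Leaving out single libraries left 0 members throughout (2 to 4 unadjusted) and 0 to 2 other genes. Those fits called 0.00% to 2.75% of all genes, with 3078 to 4412 genes unadjusted of 18004 to 18353 tested. Fitted with the replicate block, 0 members and 0 other genes were called, with 3 and 17 at an unadjusted p under 0.05 (4292 of all 17663 genes). The count called over all genes went from 725 to 237. The titles give no pairing beyond a number: deviations of same-numbered libraries correlated at 0.61, -0.03 and -0.37, and not every library correlated best with its own number. All 9 reversals were of values that no fit called. Hey1 was 0.0073 with voom, 0.0535 with library totals only, 0.0435 with log2(FPKM + 0.1) and 0.0395 with the replicate block. Leaving out 1 library, Hey1 ran from -0.37 to 0.52 (positive without WT replicate 1), Hes1 from -0.15 to 0.24 (negative without WT replicate 1 and Ptpro-KO replicates 1 and 2) and Notch4 from -0.0131 (without Ptpro-KO replicate 3) to 0.58. Ptpro passed by DESeq2 (3.98), voom (4.53), library totals only (4.15) and log2(FPKM + 1) (2.32), and ran from 3.46 to 4.89 with 1 library left out. Library totals moved the median of all genes from 0.03 to 0.19 and the calls from 320 higher and 405 lower to 630 and 294, while Nrarp was still called. The Notch2 to Notch1 ratio under the Ptpro-KO label was 1.55 in summed RPKM; the RPKM of 1 transcript was added after seeing the data. The causes of these changes were not tested.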
